A study of Mus musculus with 10 samples.

Results

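Acta2, Tagln, Pdgfra, Pdgfrb, Fap, Pdpn, Postn, Thy1, Lox and Tnc are genes that activated fibroblasts and myofibroblasts use, and they were followed through mouse pancreatic tumours with and without doxycycline. These 10 genes, of 23924 in each gene table, were chosen by name, and all 10 were found in both tables. RNA was sequenced from whole tumour tissue of athymic nude hosts, mice without a thymus, after tumours of 2 models, KrasT and MycT, had been transplanted into the pancreas. Doxycycline, the drug that controls tetracycline-regulated transgenes, was given at 100 ug/ml in drinking water with 2.5% sucrose for 14 days. The groups were 3 doxycycline KrasT tumours against 3 untreated KrasT tumours, and 2 doxycycline MycT tumours against 2 untreated MycT tumours. All 10 tumours grew in nude hosts. The labels name no sucrose for untreated mice, so effects of doxycycline, of sucrose and of the transgene cannot be told apart. No source used here gives how the transgenes are built or which cells carry them.

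Fibroblasts of pancreatic tumours lay down much of the matrix, and when activated some of them become contractile myofibroblasts. Contractile genes such as Acta2 and Tagln are shared with smooth muscle and pericytes, and PDGF receptors receive growth signals that PDGF ligands from tumour, endothelial and other cells send. Fap, Pdpn and Thy1 sit at the cell surface, while Postn, Tnc and Lox act in the matrix outside the cell. No gene of the set belongs to fibroblasts alone, so its levels in whole tissue also hold smooth muscle, vessel, lymphocyte and tumour cell RNA.

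Values are FPKM, fragment counts divided by gene length and by the mapped fragments of the library, and log2 changes are of FPKM + 1, which understates the change of low genes. A gene was said to rise or fall where its limma p, adjusted over all genes by Benjamini-Hochberg, was under 0.05. The sum of FPKM per library was 513949 to 569272 in doxycycline KrasT and 789672 to 1018968 in untreated KrasT, and 546008 to 557227 in doxycycline MycT and 1126800 to 1517332 in untreated MycT. Depth in reads is unknown. Doxycycline KrasT replicate 1 and doxycycline MycT replicate 2 were rich in the rRNA precursor Rn45s, with 17240 and 20880 FPKM, and the other 8 libraries had at most 2231 FPKM. Untreated KrasT replicate 1 stood apart, with the epithelial genes Epcam at 7.22 and Cdh1 at 4.67 FPKM, against at least 374.7 and 291 FPKM in the other 2 untreated KrasT libraries. Doxycycline KrasT replicate 1 was also low in its group, with Epcam at 26.1 and Cdh1 at 10.9 FPKM. The other 2 doxycycline KrasT libraries had at least 143.1 and 91.5 FPKM.

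In KrasT tumours 5 of the 10 genes rose with doxycycline (Acta2, Tagln, Pdgfra, Pdgfrb and Pdpn), none fell, and the same 5 were the ones whose groups did not overlap. Over all 12696 genes tested in KrasT, 8.46% rose, 8.25% fell and 16.8% were higher without overlap. In all 1074 genes rose and 1047 fell, against 1150 and 701 with median-ratio scaling, which moved the median change of all genes to 0.01. The median log2 change was 1.58 over the 10 genes and -0.10 over all genes. In MycT tumours all 10 changes were positive, against 51.6% of all genes, with a median of 2.46 against 0.04 over all genes. Of the 10, 8 were higher without overlap, against 31.9% of all 12834 genes tested. Single MycT libraries were also left out, which leaves 1 library in a group. The lowest change was then -0.81 for Tagln, 0.06 for Lox, 0.38 for Fap, 0.45 for Tnc and 0.92 for Thy1. It was 1.51 for Acta2 and Pdpn, 1.81 for Pdgfrb, 1.95 for Postn and 2.50 for Pdgfra. None of the 10 passed in the MycT fit, where limma called 5 genes in all, 0.0390% of those tested. An unadjusted p under 0.05 was reached by 5 of the 10 (Acta2, Pdgfra, Pdgfrb, Pdpn and Postn), against 15.7% of all genes in that direction. When all 10 libraries were fitted together with 1 spread, Acta2, Pdgfra, Pdgfrb and Pdpn passed in MycT, against 8.11% of all genes. The same fit called 3 genes in KrasT (Acta2, Pdgfra and Pdgfrb), against 7.94% of all genes. In whole tissue, more cells of a type and more RNA per cell cannot be told apart.

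**Figure D1:**
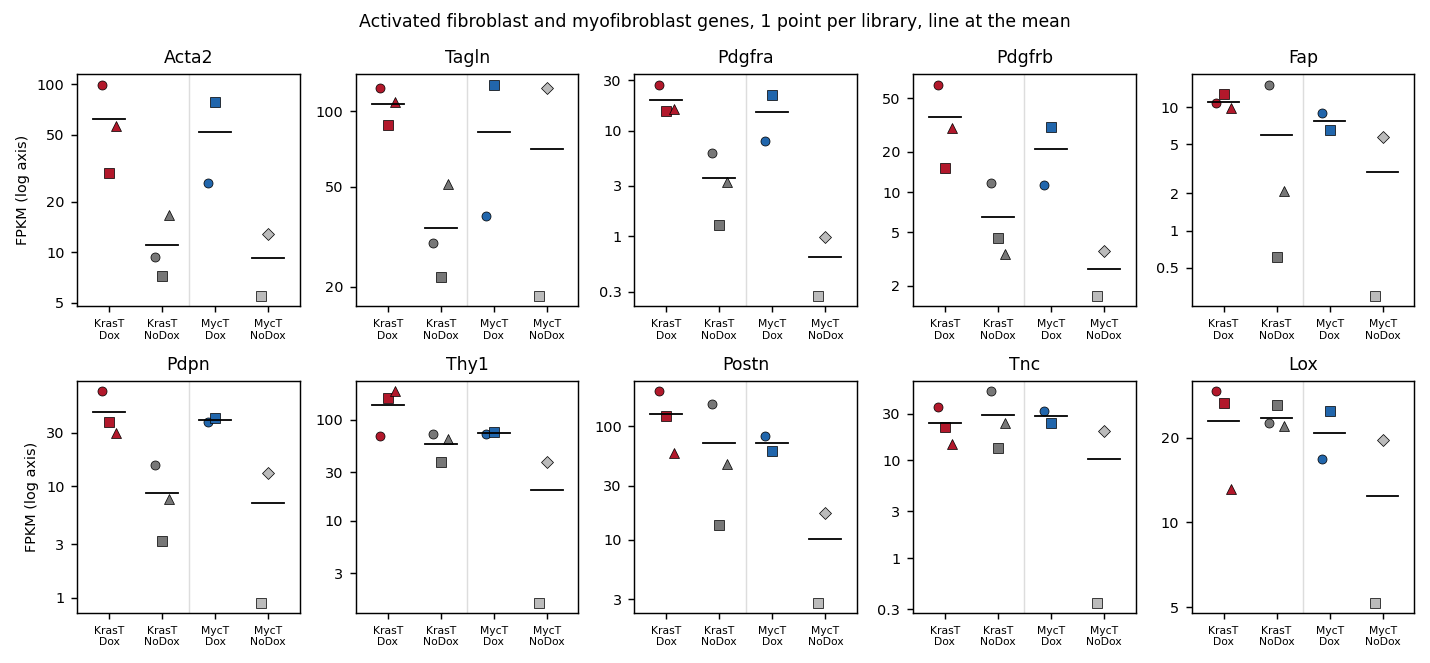
FPKM of each gene on a log axis, with 1 point per library and a line at the group mean. Circles, squares and triangles are replicates 1, 2 and 3, and the diamond is the unnumbered untreated MycT library. Acta2, Pdgfra, Pdgfrb and Pdpn are higher in every doxycycline library than in any untreated library of the same model, while Lox and Tnc overlap between the KrasT groups.

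The contractile genes are described first. Acta2, which codes for smooth muscle alpha-actin, the usual marker of myofibroblasts, was at 99.7, 29.8 and 56.2 FPKM in doxycycline KrasT, against 9.41, 7.17 and 16.7 FPKM in untreated KrasT. The lowest doxycycline library was above the highest untreated one. Acta2 rose by a log2 change of 2.29 ± 0.50 (SE, limma adjusted p = 0.0278). In MycT it was at 26.0 and 78.4 FPKM with doxycycline, against 5.50 and 12.8 FPKM untreated, again without overlap. The MycT change was 2.29 ± 0.69 (SE, limma adjusted p = 0.104, joint fit 0.0475). The KrasT call held without doxycycline replicate 2 or untreated replicate 1. It was lost without doxycycline replicates 1 and 3 (adjusted p = 0.0643 and 0.105 in limma) and untreated replicates 2 and 3 (adjusted p = 0.0890 and 0.0701).

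Tagln, the actin-binding protein transgelin, was at 124.3, 88.2 and 108.8 FPKM in doxycycline KrasT, against 30.0, 21.8 and 51.4 FPKM in untreated KrasT. The groups did not overlap, and Tagln rose by 1.68 ± 0.35 (SE, limma adjusted p = 0.0250). The joint fit gave the KrasT change an adjusted p of 0.119 in limma. In MycT it was at 38.3 and 127.9 FPKM with doxycycline, against 18.4 and 123.4 FPKM untreated. Each MycT group held 1 high and 1 low library, so the groups overlapped (log2 change 0.54 ± 1.08 SE, limma adjusted p = 0.762). Without doxycycline replicate 2, the MycT library rich in Rn45s, the change was -0.32, and it was -0.81 without untreated replicate 2. The KrasT call held without untreated replicate 1 and was lost without each of the other 5 libraries, with adjusted p of 0.0553 to 0.102 in limma.

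Part of Tagln's transcript is shared with neighbours on the other strand. Of its 1546 windows of 50 bases, 48.3% also occur, on either strand, in transcripts of other genes, most of them in Gm48529 and the rest in Pcsk7. No source used here says whether counting used strand, so Tagln reads and reads of these genes may not be separated. Pcsk7, a proprotein convertase, was between 3.01 and 15.6 FPKM in all 10 libraries. For Acta2 0.352% of 1986 windows were shared, with the cytoplasmic actin Actg1 and its pseudogenes, for Tnc 1.15% of 7057 windows, for Pdgfra 0.206% and for Pdpn 0.0566%. Fap, Postn, Thy1, Pdgfrb and Lox shared 0.

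Skeletal muscle actin, Acta1, is a close relative of Acta2 and was at 1544 FPKM in doxycycline KrasT replicate 2 and 1936 FPKM in doxycycline MycT replicate 1. Acta2 was the lowest of its group in both of these libraries. The coding sequences have 1134 bases each and are 85.4% identical. Their first 60 bases are shown to let the letters that part these actins be seen, with capitals in Acta1 where it differs from Acta2, at 17 of the 60 bases.
Acta2: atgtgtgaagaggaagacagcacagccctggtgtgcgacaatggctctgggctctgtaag
Acta1: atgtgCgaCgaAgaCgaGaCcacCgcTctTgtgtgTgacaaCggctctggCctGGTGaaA

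Genes of smooth muscle contraction are often driven by serum response factor at a short element called the CArG box. It was searched as CC, 6 letters each A or T, and GG, which reads the same on both strands, and a near match has at least 5 of the 6 as A or T. Among 32851 RefSeq promoters of GRCm38.p6, running 250 bases before to 50 after the start, 9.98% hold a near or full match, 0.822% hold at least 2 and 1.63% hold a full one. Of the 5 genes of the set with an entry (Acta2, Pdgfra, Pdpn, Postn and Tnc), Acta2 had a match, and of 12 other contractile genes with an entry Myl9 and Srf had one. The Acta2 promoter lies at chr19:34255324-34255623 on the minus strand, with near matches starting 84 and 34 bases before the start. The Myl9 promoter lies at chr2:156775214-156775513 on the plus strand, with matches 161 and 99 bases before the start, the first of them full. Both are shown because these genes rose in KrasT and carry matches in pairs, so they were picked by outcome. Mylk, Synpo2 and Itga8 also rose in KrasT and had 0 matches. Srf had 2 full matches and a KrasT change of 0.0004 ± 0.45 (SE, limma). A link between the element and the changes was not tested. Capitals mark the matches below.
Acta2 promoter: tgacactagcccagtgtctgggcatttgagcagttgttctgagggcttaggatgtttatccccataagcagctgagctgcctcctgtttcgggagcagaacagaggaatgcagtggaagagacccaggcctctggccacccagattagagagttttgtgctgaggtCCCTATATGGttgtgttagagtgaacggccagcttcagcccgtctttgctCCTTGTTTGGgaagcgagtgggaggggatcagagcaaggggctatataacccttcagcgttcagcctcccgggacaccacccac
Myl9 promoter: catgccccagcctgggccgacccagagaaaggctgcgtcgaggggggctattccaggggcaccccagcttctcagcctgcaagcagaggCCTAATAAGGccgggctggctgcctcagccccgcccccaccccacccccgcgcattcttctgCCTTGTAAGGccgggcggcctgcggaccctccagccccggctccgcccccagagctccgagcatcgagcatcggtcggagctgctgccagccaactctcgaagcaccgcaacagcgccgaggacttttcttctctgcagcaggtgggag

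The other contractile genes give the surroundings of Acta2 and Tagln. Of 13 tested in KrasT, 5 rose and 0 fell, with a median of 1.31. Over all genes 8.46% rose and 8.25% fell in KrasT, and in the joint fit 7.94% rose in KrasT and 8.11% in MycT. The same shares stand beside the counts of every list below. Myl9, a regulatory light chain of smooth muscle myosin, was at 106.4, 58.7 and 94.2 FPKM in doxycycline KrasT, against 10.7, 9.99 and 8.68 FPKM in untreated KrasT. It rose by 2.98 ± 0.29 (SE, limma adjusted p = 0.00427). Mylk, the kinase that phosphorylates myosin light chain, rose by 2.72 ± 0.41 (SE, limma adjusted p = 0.0126). In MycT 11 of 11 tested genes had positive changes with a median of 2.12, and none passed in the MycT fit. In the joint fit 3 passed in MycT and 4 in KrasT. Myl9 overlapped there, at 22.2 and 69.7 FPKM with doxycycline, against 24.9 and 8.15 FPKM untreated. Des, the muscle filament protein desmin, had a MycT change of 4.57 ± 1.11 (SE, limma adjusted p = 0.0806). The summed FPKM of 8 skeletal muscle genes reached 6668 in doxycycline MycT replicate 1 and 9.35 in replicate 2, against 5.39 to 7.18 untreated. In KrasT it was 5473 in doxycycline replicate 2 and 66.1 and 286.6 in the others, against 3.42 to 432.1 untreated. The part of muscle tissue in the contractile values was not tested. The contractile list's own sum was 544.7 to 1347 FPKM in doxycycline KrasT and 401.9 to 867.4 FPKM in untreated KrasT, which overlap. The MycT sum was 445.6 and 1709 FPKM with doxycycline, against 110.4 and 221.1 FPKM untreated, without overlap. In every library Tpm1 was the largest part of the contractile sum. Tpm1, Tpm2 and Des were at 1099, 312.8 and 195.1 FPKM in doxycycline MycT replicate 1. They were at 735.7, 275.6 and 172.6 FPKM in doxycycline KrasT replicate 2. These are the libraries with the highest skeletal muscle sums, and Tagln was the lowest of its group in both.

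The PDGF receptors both rose in KrasT, and over the 10 libraries they had the most similar profiles of any pair of the set. Pdgfra, the receptor typical of fibroblasts, was at 27.3, 15.3 and 15.9 FPKM in doxycycline KrasT, against 6.19, 1.27 and 3.24 FPKM in untreated KrasT. All doxycycline libraries were above all untreated ones, and Pdgfra rose by 2.27 ± 0.47 (SE, limma adjusted p = 0.0254). In MycT it was at 8.002 and 21.8 FPKM with doxycycline, against 0.274 and 0.992 FPKM untreated. Both untreated MycT libraries were under 1 FPKM, and the change of 3.17 ± 0.58 (SE, limma adjusted p = 0.0675, joint fit 0.0113) was the largest of the 10 genes in MycT. In KrasT the call of Pdgfra held without untreated replicate 1 and was lost without each of the other 5 libraries, with adjusted p of 0.0592 to 0.0930 in limma.

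Pdgfrb, the receptor that pericytes share with fibroblasts, was at 63.3, 15.0 and 30.0 FPKM in doxycycline KrasT, against 11.6, 4.58 and 3.43 FPKM in untreated KrasT. The gap between the groups was narrow, 15.0 against 11.6 FPKM. Pdgfrb rose by 2.23 ± 0.60 (SE, limma adjusted p = 0.0485). It was at 11.4 and 30.6 FPKM in doxycycline MycT, against 1.69 and 3.64 FPKM in untreated MycT, a change of 2.48 ± 0.60 (SE, limma adjusted p = 0.0806, joint fit 0.0454). These groups did not overlap. The KrasT call held without doxycycline replicate 2 or untreated replicate 1. It was lost without doxycycline replicates 1 and 3 (adjusted p = 0.113 and 0.148 in limma) and untreated replicates 2 and 3 (adjusted p = 0.134 and 0.150).

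Likeness was measured as the root-mean-square difference of log2(FPKM + 1) over 10 libraries, after subtracting each gene's mean in each table. Pdgfra and Pdgfrb were the closest pair of the set at 0.45, followed by Acta2 with Pdgfra and Acta2 with Pdgfrb at 0.53 each. These are descriptions, and the libraries share the doxycycline difference and library quality. Of 8 pericyte markers 1 rose in KrasT and 0 fell, the riser being Notch3, a receptor of vascular mural cells, at 1.62 ± 0.43 (SE, limma adjusted p = 0.0464). Their summed FPKM was 70.2 to 96.3 in doxycycline KrasT and 22.2 to 82.6 in untreated KrasT, and 44.3 to 87.8 in doxycycline MycT and 31.2 to 52.7 in untreated MycT. The pericyte sums overlapped between groups in both models.

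Among 9 other PDGF genes, ligands and signal carriers, 1 rose in KrasT and 0 fell, with a median of 0.62. The riser was Pik3r1, a regulatory subunit of PI3 kinase, at 2.02 ± 0.28 (SE, limma adjusted p = 0.0108). The ligand Pdgfa was at 31.8, 23.3 and 22.7 FPKM in doxycycline KrasT, against 16.2, 17.0 and 15.9 FPKM in untreated KrasT. The groups did not overlap, yet Pdgfa missed the threshold (0.62 ± 0.24 SE, limma adjusted p = 0.120). Pdgfb, the ligand of Pdgfrb that vessels release, was at 14.4, 16.4 and 17.0 FPKM in doxycycline KrasT, against 6.91, 17.2 and 13.6 FPKM in untreated KrasT, and overlapped. In MycT 8 of the 9 changes were positive and none passed in the MycT fit. In the joint fit 4 passed in MycT and 2 in KrasT. Pdgfa was at 27.3 and 28.1 FPKM in doxycycline MycT, against 2.92 and 11.1 FPKM in untreated MycT (2.06 ± 0.61 SE, limma adjusted p = 0.102, joint fit 0.0183). Pdgfb changed by 1.86 ± 0.49 (SE, limma adjusted p = 0.0874, joint fit 0.0260). Nrp1, a co-receptor that also binds PDGF, changed by 1.95 ± 0.34 (SE, limma adjusted p = 0.0652, joint fit 0.0388).

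**Figure D2:**
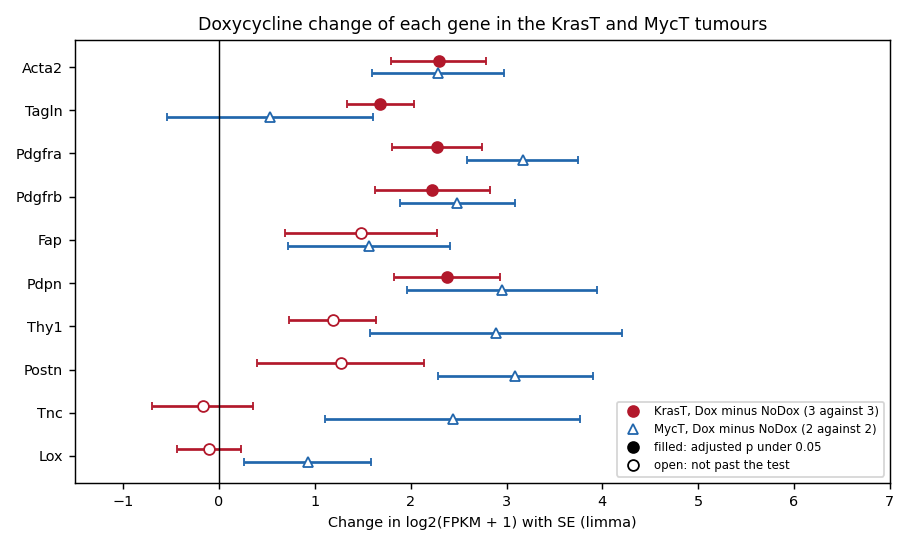
Log2 change of FPKM + 1 with doxycycline for each gene, with SE, from limma in KrasT (3 against 3, circles) and MycT (2 against 2, triangles), where filled marks passed at an adjusted p under 0.05. Filled marks stand for the 5 KrasT calls, and the KrasT values of Tnc and Lox lie close to 0.

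Among the surface proteins Pdpn rose in KrasT. Pdpn codes for podoplanin, a membrane protein of activated fibroblasts and lymphatic endothelium. It was at 70.2, 37.7 and 29.6 FPKM in doxycycline KrasT, against 15.4, 3.23 and 7.60 FPKM in untreated KrasT. No library crossed between the groups, and the rise of 2.38 ± 0.55 (SE, limma adjusted p = 0.0327) was the largest of the set in KrasT. In MycT Pdpn was at 37.8 and 40.6 FPKM with doxycycline, against 0.906 and 13.1 FPKM untreated. The 2 doxycycline MycT libraries were close and the untreated ones far apart, with a change of 2.95 ± 0.99 (SE, limma adjusted p = 0.122, joint fit 0.0478). In KrasT the joint fit gave Pdpn an adjusted p of 0.0554 in limma. The KrasT call held without untreated replicate 1 and was lost without each of the other 5 libraries (adjusted p of 0.0776 to 0.105 in limma).

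Fap, a membrane protease named after activated fibroblasts, was at 10.8, 12.8 and 9.82 FPKM in doxycycline KrasT, against 15.3, 0.608 and 2.10 FPKM in untreated KrasT. Untreated replicate 1, the library with little Epcam, was above all doxycycline libraries, and the other 2 untreated libraries were below them. The change was 1.48 ± 0.80 (SE, limma adjusted p = 0.240), and without untreated replicate 1 it was 2.44 with an adjusted p of 0.00592. That smaller fit called 1984 rises over all genes, against 1074 in the full KrasT fit. In MycT Fap was at 9.03 and 6.62 FPKM with doxycycline, against 0.296 and 5.72 FPKM untreated. The groups did not overlap, but the gap between 6.62 and 5.72 FPKM was small (1.57 ± 0.85 SE, limma adjusted p = 0.262, joint fit 0.297).

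Thy1, a membrane-anchored glycoprotein of fibroblasts that mouse T cells and neurons also carry, was at 68.0, 163.9 and 189.6 FPKM in doxycycline KrasT, against 71.5, 37.6 and 64.6 FPKM in untreated KrasT. Doxycycline replicate 1, the library with high Rn45s, lay within the untreated range. The change was 1.19 ± 0.45 (SE, limma adjusted p = 0.118), and without that library it was 1.64 with an adjusted p of 0.0493. Thy1 was at 71.4 and 74.7 FPKM in doxycycline MycT, against 1.54 and 38.2 FPKM in untreated MycT. The doxycycline MycT libraries lay above both untreated ones, which differed widely (2.89 ± 1.32 SE, limma adjusted p = 0.201, joint fit 0.0794).

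Markers of other cells that carry Pdpn or Thy1 were summed beside them. The 7 T cell genes summed to 7.06 to 16.8 FPKM in doxycycline KrasT and 0.944 to 4.68 FPKM in untreated KrasT, and to 20.6 to 37.7 FPKM in doxycycline MycT and 5.30 to 6.62 FPKM in untreated MycT. Both sums were higher with doxycycline without overlap. The T cell receptor gene Cd3g had a KrasT change of 1.33 ± 0.43 (SE, limma adjusted p = 0.0758), and the part of T cells in the Thy1 values was not tested. The 6 lymphatic genes summed to 4.91 to 14.5 FPKM in doxycycline KrasT and 6.28 to 7.93 FPKM in untreated KrasT, which overlap. In MycT they summed to 5.23 and 10.1 FPKM with doxycycline, against 1.15 and 1.17 FPKM untreated. The part of lymphatic cells in the Pdpn values was not tested. Mesothelium also carries Pdpn, and 2 of its 3 tested genes rose in KrasT: Upk3b by 2.60 ± 0.62 and Wt1 by 2.42 ± 0.36 (SE, limma adjusted p = 0.0348 and 0.0128). The third, Msln, which codes for mesothelin, was at 20.1, 200.5 and 213.8 FPKM in doxycycline KrasT, against 192.9, 1295 and 665.9 FPKM in untreated KrasT. Its groups overlapped and its change was of the opposite sign (-2.51 ± 1.06 SE, limma adjusted p = 0.147). The summed FPKM of 6 mesothelial genes was 38.8 to 251.2 in doxycycline KrasT and 194.8 to 1297 in untreated KrasT, and 290.2 and 628.5 in doxycycline MycT and 2.11 and 67.9 in untreated MycT. Msln made up most of the KrasT sums, and Krt5 and Msln most of the MycT sums. Krt5, a keratin that basal epithelium also uses, was at 323.9 and 172 FPKM in doxycycline MycT, against 0 and 60.1 FPKM in untreated MycT, and at most 0.445 FPKM in KrasT. The part of mesothelium in the Pdpn values was not tested.

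The matrix genes passed in neither model. Postn codes for periostin, a matrix protein that activated fibroblasts secrete, and was at 203.5, 122.9 and 58.8 FPKM in doxycycline KrasT, against 156.4, 13.4 and 46.9 FPKM in untreated KrasT. Each group spread widely and untreated replicate 1 was again the high one (1.27 ± 0.88 SE, limma adjusted p = 0.350). Without that library the change was 2.13, with an adjusted p of 0.0526. In MycT Postn was at 81.7 and 60.5 FPKM with doxycycline, against 2.80 and 17.4 FPKM untreated. These groups did not overlap (3.09 ± 0.81 SE, limma adjusted p = 0.0878, joint fit 0.0722).

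Tnc, the glycoprotein tenascin C of provisional matrix, was at 34.9, 22.1 and 14.6 FPKM in doxycycline KrasT, against 50.7, 13.3 and 24.0 FPKM in untreated KrasT. The groups overlapped throughout (-0.17 ± 0.53 SE, limma adjusted p = 0.850). In MycT Tnc was at 32.3 and 24.2 FPKM with doxycycline, against 0.350 and 20.2 FPKM untreated. The MycT difference came with 1 untreated library near 0 and 1 close to the doxycycline level (2.44 ± 1.33 SE, limma adjusted p = 0.267, joint fit 0.142).

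Lox, the enzyme lysyl oxidase that cross-links collagen and elastin, was at 29.2, 26.5 and 13.1 FPKM in doxycycline KrasT, against 22.6, 26.0 and 21.9 FPKM in untreated KrasT. The untreated libraries lay inside the doxycycline range (-0.11 ± 0.34 SE, limma adjusted p = 0.856). Its sign was positive at 0.02 with median-ratio scaling and 0.18 with quantile normalization, and Tnc turned to 0.13 with the last of these. In MycT Lox was at 16.8 and 24.8 FPKM with doxycycline, against 5.19 and 19.6 FPKM untreated, which overlap (0.92 ± 0.67 SE, limma adjusted p = 0.381, joint fit 0.267).

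Of the 4 relatives of Lox, 1 rose in KrasT and 0 fell, with a median of -0.05. Loxl1, the family member best known for elastic fibres, was at 153.8, 45.2 and 107.2 FPKM in doxycycline KrasT, against 14.0, 6.74 and 9.67 FPKM in untreated KrasT. Every doxycycline library was far above every untreated one, and Loxl1 rose by 3.09 ± 0.49 (SE, limma adjusted p = 0.0146). In MycT it was at 20.8 and 58.9 FPKM with doxycycline, against 1.61 and 7.91 FPKM untreated (2.91 ± 0.81 SE, limma adjusted p = 0.0938, joint fit 0.0289). Loxl2, Loxl3 and Loxl4 had KrasT changes of -0.14, 0.05 and -0.60 and none passed. Among 14 other matrix genes of this kind, 3 rose and 1 fell in KrasT, with a median of 0.44. Bgn, the proteoglycan biglycan, rose by 2.88 ± 0.41 and Tnxb, tenascin X, by 2.64 ± 0.33 (SE, limma adjusted p = 0.0113 and 0.00877). Fbln2, the matrix glycoprotein fibulin 2, fell, with 138.5, 40.5 and 58.7 FPKM in doxycycline KrasT, against 372.2, 398.3 and 304.3 FPKM in untreated KrasT (-2.35 ± 0.45 SE, limma adjusted p = 0.0212). In MycT 12 of 13 tested matrix genes had positive changes, with a median of 2.27, and none passed in the MycT fit. In the joint fit 2 passed in MycT, Bgn and Tnxb, and the same 2 passed in KrasT.

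The changes of the 10 genes were then compared between the models in 1 fit. None passed, and the lowest unadjusted p in limma was 0.0986. The limma adjusted p were 0.339 to 0.998, with differences of -2.61 to 1.15, against 29 of 12073 genes, 0.240%, that differed in either direction. Acta2 had nearly equal changes, with a KrasT minus MycT difference of 0.01 ± 0.90 (SE, limma adjusted p = 0.998). The largest difference was that of Tnc, -2.61 ± 1.42 (SE, limma adjusted p = 0.339), followed by Postn at -1.82 ± 1.40 and Thy1 at -1.70 ± 1.36 (limma adjusted p = 0.505 and 0.520). The SE was 0.73 to 1.42 over the 10 genes, so differences of about 1 log2 unit could not be detected. Without the unnumbered untreated MycT library, Tnc at -4.59 and Thy1 at -3.68 passed (limma adjusted p = 0.0347 and 0.0398). That fit leaves 1 untreated MycT library, which is assumed to vary like the other groups. Without untreated MycT replicate 2 the differences were -0.62 and 0.27 (limma adjusted p = 0.767 and 0.888).

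Single libraries were high or low in their group for many of the genes at once. Doxycycline KrasT replicate 1 was the highest of its group for 8 of the 10 genes. Untreated KrasT replicate 1 was the highest of its group for 7, and untreated KrasT replicate 2 the lowest for 8. In MycT the untreated replicate 2 was below the unnumbered untreated library for all 10, and doxycycline replicate 2 was above replicate 1 for 7. Of the 10 genes, 1, 2 and 0 rose in KrasT after doxycycline replicate 1, 2 or 3 was dropped. Over all 12696 genes tested, those fits called 611, 634 and 77 rises. Dropping untreated replicate 1, 2 or 3 left 6, 0 and 0 of the 10 as rises, beside 1984, 188 and 64 over all genes. The 6 calls came from the fit with the most rises over all genes, and whether they are specific to the set was not tested.

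The genes were next set against a broad measure of fibroblast RNA, the summed FPKM of Dcn, Lum, Col1a1, Col1a2, Col3a1, Col5a1, Col6a1, Col6a2, Fstl1 and Mmp2, here called the pan-fibroblast sum. It was 4368 to 10740 FPKM in doxycycline KrasT and 379 to 884 FPKM in untreated KrasT, and 1843 and 2691 FPKM in doxycycline MycT and 60.5 and 517.7 FPKM in untreated MycT. Of its 10 genes, 9 rose in KrasT with a median of 3.32, against 8.46% of all genes. None passed in the MycT fit, where the median was 3.74. In the joint fit 7 passed in KrasT and 8 in MycT, against 7.94% and 8.11% of all genes. The proteoglycan gene Dcn was at 1702, 1309 and 1094 FPKM in doxycycline KrasT, against 69.1, 22.7 and 20.7 FPKM in untreated KrasT. The pan-fibroblast median of 3.32 in KrasT was above the largest change of the 10 activation genes, 2.38 for Pdpn. The sum is made largely of collagen genes, and whether its genes also change with activation was not tested. Shares of it therefore do not separate activation from fibroblast content.

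As a share of the pan-fibroblast sum, no gene of the set was higher without overlap in either model, against 0.756% of all genes in KrasT and 1.35% in MycT. In KrasT 5 shares were lower without overlap (Tagln, Thy1, Postn, Tnc and Lox) and 5 overlapped. In MycT Tagln and Lox were lower without overlap and 8 overlapped. The same ratio was lower without overlap for 83.9% of all genes tested in KrasT and 84.5% in MycT, so the shares of the set, 5 of 10 and 2 of 10, were below the background. Tnc was 0.325%, 0.505% and 0.320% of the sum in doxycycline KrasT, against 5.74%, 3.51% and 4.44% in untreated KrasT. Lox was 0.272%, 0.608% and 0.287% of the sum in doxycycline KrasT, against 2.55%, 6.87% and 4.06% in untreated KrasT. Shares of the receptor genes overlapped with this sum: Pdgfra was 0.254%, 0.351% and 0.349% in doxycycline KrasT, against 0.7002%, 0.335% and 0.601% in untreated KrasT. In MycT Pdgfra was 0.434% and 0.811% with doxycycline, against 0.454% and 0.192% untreated, and Lox was 0.912% and 0.922% with doxycycline, against 8.59% and 3.79% untreated. The overlap depended on the genes summed. Relative to Dcn and Lum alone, all 10 genes were lower without overlap in KrasT, against 92.4% of all genes. Pdgfra was then 0.901% to 1.10% in doxycycline KrasT and 4.06% to 8.04% in untreated KrasT, and Pdgfrb 0.883% to 2.49% in doxycycline KrasT and 8.50% to 14.6% in untreated KrasT. In MycT 8 were lower with that denominator, against 93.2% of all genes, and Pdgfra and Tnc overlapped. Relative to Col1a1, Col1a2 and Col3a1, 4 of the 10 were lower without overlap in KrasT and 4 in MycT, against 81.1% and 76.9% of all genes.

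**Figure D3:**
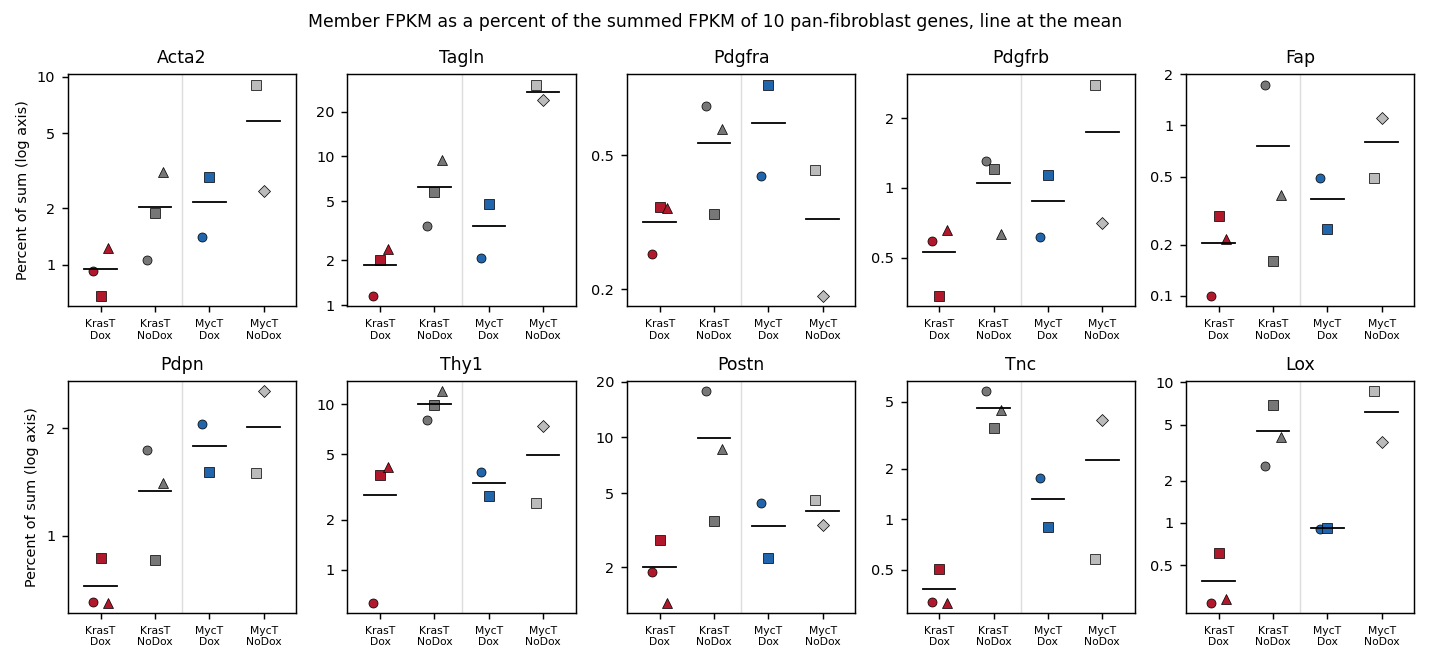
FPKM of each gene as a percent of the summed FPKM of 10 pan-fibroblast genes, on a log axis, with 1 point per library, shapes by replicate (diamond for the unnumbered library) and a line at the group mean. In KrasT the doxycycline points of Tnc, at most 0.505%, lie under all untreated points, at least 3.51%, while those of Pdgfra overlap.

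Endothelial sums were higher with doxycycline in both models, whereas all 8 epithelial changes in KrasT were negative. Endothelial genes rose in 7 of 8 members in KrasT with a median of 2.00, and Pecam1, an adhesion molecule of vessel lining, was at 44.1, 15.1 and 27.3 FPKM in doxycycline KrasT, against 4.62, 2.61 and 4.28 FPKM in untreated KrasT. The endothelial sum was 85.8 to 184.6 FPKM in doxycycline KrasT and 18.9 to 36.3 FPKM in untreated KrasT, and 69.1 and 135 FPKM in doxycycline MycT and 13.1 and 37.9 FPKM in untreated MycT. Neither pair of groups overlapped, and the part of vessel walls in Acta2, Tagln and Pdgfrb was not tested. Epithelial genes fell in 2 of 8 members in KrasT, the keratins Krt18 (-3.60 ± 0.82) and Krt8 (-3.09 ± 0.81, SE, limma adjusted p = 0.0318 and 0.0444). Their sum was 278.1 to 1680 FPKM in doxycycline KrasT and 2354 to 18360 FPKM in untreated KrasT. The epithelial MycT sum was 880.6 and 1857 FPKM with doxycycline, against 551 and 1321 FPKM untreated, which overlap. Of 7 genes that mesenchymal tumour cells can also use, 1 rose in KrasT and 0 fell. The riser was the transcription factor Snai1 at 1.35 ± 0.25 (SE, limma adjusted p = 0.0203, joint fit 0.089). Of the 7 KrasT changes 4 were positive and 3 negative, among them Vim at -1.33 and Cdh2 at -1.15, and neither passed. The sum of the 7 genes, mostly Vim, was 477.8 to 1409 FPKM in doxycycline KrasT and 1239 to 2402 FPKM in untreated KrasT. Their MycT sum was 272.7 and 540 FPKM with doxycycline, against 39.8 and 113.5 FPKM untreated, without overlap. There Vim changed by 2.57 ± 0.70 (SE, limma adjusted p = 0.0915, joint fit 0.0353) and the transcription factor gene Twist1 by 2.39 ± 0.58 (SE, limma adjusted p = 0.0807, joint fit 0.0160). The part of tumour cells with a mesenchymal state in the values of the set was not tested.

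**Figure D4:**
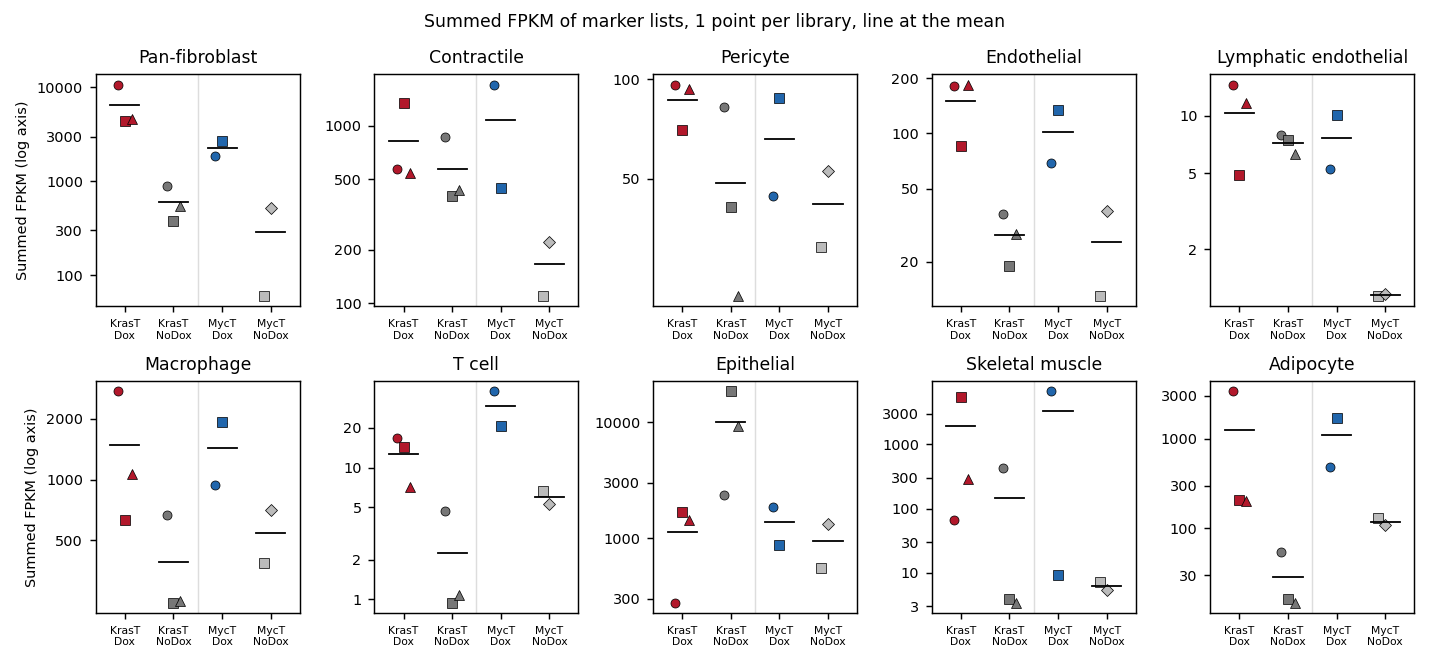
Summed FPKM of 10 marker lists on a log axis, with 1 point per library, shapes by replicate (diamond for the unnumbered library) and a line at the group mean. Pan-fibroblast and endothelial sums are higher in every doxycycline library than in any untreated library of the same model, whereas the skeletal muscle sum is high in single libraries, up to 5473 FPKM in KrasT and 6668 FPKM in MycT.

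Genes nearest to each of the 10 were sought among 12073 genes by the same measure of likeness. Predicted genes, clone names and small RNAs were left out of the ranking. Acta2 was nearest to the endothelial genes Pecam1 and Cd93, at 0.25 and 0.26, against a median of 1.43 over all genes compared. Pdgfrb was nearest to A4galt, a glycolipid synthase, and Unc93b1, a chaperone of Toll-like receptors, at 0.12 and 0.18. Pdgfra was nearest to H2-DMa, of antigen loading, and Tgfbr3, a TGF-beta co-receptor, at 0.29 and 0.30. Pdpn was nearest to Psmb8, an immunoproteasome subunit, and Spon1, a matrix protein, at 0.23 and 0.27. Tagln had Snai1 and the steroid enzyme Hsd11b1, both near 0.43, and Fap had Qpct and Gng11, both near 0.35. For Postn they were B2m and Cd83 (0.48 and 0.50), and for Thy1 Irf1 and Hhex (0.41 and 0.48). Lox had Tlr4 and Tec, at 0.24 and 0.29 against a median of 0.81, and for Tnc they were the cytokine gene Il1b and the matricellular gene Thbs1, at 0.34 and 0.41. No gene of the set was among the 2 nearest of another.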

How the data were processed

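Total RNA of frozen tumours was sequenced, per the labels. The authors deposited FPKM in 2 gene tables, 1 per model. Per the submitters' processing notes, cutadapt, TopHat and the mm9 build were used. No source used here names the program or annotation behind the FPKM, or strand use. Columns were matched to samples by animal number. One MycT column marked as untreated has a number that no label holds, and it entered its group unnumbered. Of 23951 rows per table, 27 whose symbols had become dates were left out. Reads per library are unknown, and no scaling beyond FPKM was added.

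The filter asked for 1 FPKM or more in 3 or more KrasT libraries, or in 2 or more MycT libraries. Two-sided tests on log2(FPKM + 1), separately per table, used limma 3.58.1 (eBayes, trend) under R 4.3.3. The difference between models was the interaction in 1 fit of all 10 libraries. The steps were tested on simulated data. Each column has its own animal number, that of 1 MycT column being in no label, so p-values measure the spread between transplanted tumours. The donor of each tumour was not part of the fits, so spread between donors and between hosts is not separated. The smallest exact permutation p is 0.1 for 3 against 3 and 0.333 for 2 against 2. The 10 genes and the marker lists were chosen with earlier results of these data known. Beside the 10, each list gives at most 2 called rises and at most 2 called falls per model, or the 2 genes of smallest p, and the 2 genes nearest to each of the 10. Other genes named, such as Pdgfa, Pdgfb, the Lox relatives, Acta1 and Pcsk7, were chosen after their values were seen. Transcripts were of GENCODE for GRCm38 and promoters of RefSeq for GRCm38.p6, used for sequence only. Tables and figures were made with Python 3.11.15, pandas 2.3.3 and matplotlib 3.10.9. One item that the naming rule covers is not reported here.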

Additional observations from a re-analysis of the deposited data

How the results depend on the processing

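No paired analysis was possible because every tumour has an animal number of its own and no number links samples. The alternatives were a pseudocount of 0.1, no filter, a mean FPKM of 5 or more, quantile normalization, median-ratio scaling, spread without a trend, robust spread, omission of the libraries with Rn45s above 10000 FPKM, the joint fit, and omission of each library in turn. Omission of single libraries was run for the 10 genes and for total counts, not for other named genes. The causes of the differences below were not tested.

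In KrasT 5 of the 10 genes passed, and the number was 3 without the filter, 3 in the joint fit, 1 without the library rich in Rn45s, and 0 to 6 with single libraries left out. Over all genes, 2121 calls became 1340 at a mean FPKM of 5 or more, 1078 with quantile normalization, 1004 without the Rn45s library and 113 to 4223 with single libraries left out. In MycT 0 of the 10 passed, and 4 did in the joint fit. The 5 MycT calls over all genes became 0 without the filter or the Rn45s library, 10 at a mean FPKM of 5 or more, 2463 in the joint fit and 0 with any library left out. For the difference between models, 29 genes became 18 with the pseudocount of 0.1, 92 without the filter, 69 at a mean FPKM of 5 or more, 0 without the Rn45s libraries and 0 to 1522 with single libraries left out. Of the 10 genes 0 to 2 passed there.

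Signs turned for Lox in KrasT (0.021 with median-ratio scaling, 0.18 with quantile normalization, -0.31 to 0.24 with libraries left out), Tnc in KrasT (0.13 with quantile normalization, -0.61 to 0.31) and Tagln in MycT (-0.32 without the Rn45s library, -0.81 to 1.88). Differences between models that turned were those of Acta2 (-0.018 with the pseudocount of 0.1, -0.77 to 0.78), Fap (0.029 with median-ratio scaling, 0.13 with quantile normalization, -1.28 to 1.10), Tagln (-0.19 to 2.49), Pdgfrb (-0.94 to 0.42), Pdpn (-2.02 to 0.87) and Thy1 (-3.68 to 0.27). With Dcn and Lum alone as denominator, 17 of the 20 shares (10 genes in each model) moved by more than the spread of replicates, and the number lower without overlap was 10 in KrasT and 8 in MycT, against 5 and 2 with the pan-fibroblast sum. With Col1a1, Col1a2 and Col3a1 0 of the 20 moved by that much, and 4 were lower without overlap in each model. These collagens are a large part of the pan-fibroblast sum itself, so small movement was partly fixed in advance. Depth in reads is unknown, so no counting error can be given for low values such as Pdgfra in untreated MycT.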

Other observations

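Lists of other fibroblast states were measured beside the activation genes. Of 8 adventitial and resting fibroblast genes, 5 rose in KrasT and 0 fell, with a median log2 change of 2.47. Among them Dpt, the matrix protein dermatopontin, changed by 6.40 ± 0.36, and Clec3b, tetranectin, by 5.55 ± 0.30 (SE, limma adjusted p = 0.000982 for both). In MycT the same list had 8 positive changes of 8, and none passed in the MycT fit. In the joint fit 4 genes passed in MycT and 4 in KrasT. Of 8 inflammatory fibroblast genes tested in KrasT, 2 rose and 1 fell, with a median of 0.20. The chemokine genes Cxcl12 and Ccl2 rose by 3.93 ± 0.66 and 1.97 ± 0.48 (SE, limma adjusted p = 0.0160 and 0.0369, joint fit 0.00751 and 0.101). Has2, a hyaluronan synthase, fell, with a change of -2.07 ± 0.47 (SE, limma adjusted p = 0.0311). Of the 8 changes, 5 were positive and 3 negative. The other 2 negative ones were the cytokine genes Il6 at -1.79 ± 0.53 and Lif at -1.175 ± 0.39. Both missed the threshold (SE, limma adjusted p = 0.0620 and 0.0832). In MycT Cxcl12 changed by 3.80 ± 0.44 (SE, limma adjusted p = 0.0638), and no gene of the list passed. In the joint fit 1 gene of the list passed in MycT and 1 in KrasT.

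Macrophage genes rose in 2 of 8 members in KrasT, Emr1 and Csf1r, with a list median of 1.90. Their summed FPKM was 629.9 to 2732 in doxycycline KrasT and 245.2 to 669.9 in untreated KrasT, which overlap. The macrophage sum in MycT was 939.1 and 1922 with doxycycline, against 387.5 and 702.6 untreated, without overlap, and 2 genes passed in the joint fit. Adipocyte genes rose in 3 of 6 tested members in KrasT, and their sum was 201.2 to 3360 FPKM in doxycycline KrasT and 14.8 to 54.2 FPKM in untreated KrasT, highest in doxycycline replicate 1. The adipocyte sum in MycT was 479.4 and 1693 FPKM with doxycycline, against 107.4 and 129.6 FPKM untreated. The acinar lipase gene Pnlip had a KrasT change of 5.44 ± 1.95 and the Schwann cell gene S100b one of 1.29 ± 0.39 (SE, limma adjusted p = 0.1001 and 0.0670). The acinar sum was 16530 FPKM in doxycycline KrasT replicate 3, with 344.9 and 142.6 FPKM in doxycycline replicates 1 and 2, against 25.2 to 391.4 FPKM in untreated KrasT. The acinar sum in MycT was 114.5 and 1699 FPKM with doxycycline, against 98.9 and 363.8 FPKM untreated.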
